A study of Mus musculus with 23 samples.

Results

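The comparison described here asks in which genes the effect of social defeat on the mouse hippocampus differed between genotypes. It was taken as the effect of chronic social defeat stress (CSDS) in mice labelled Nrsn2-KO minus the effect in wild-type (WT) mice, so a positive value means that defeat moved the gene further upward, or less far downward, in the mice labelled knockout. The comparison used 20 of the 23 libraries of the series, with 5 in each of 4 groups, control and CSDS for WT and control and CSDS for the knockout label. All were poly(A) RNA from hippocampi. Mice of the CSDS groups met an unfamiliar aggressive CD-1 mouse for 5 min on each of 10 days and otherwise lived next to it behind a perforated divider. Of 39017 genes in the deposited tables, 18263 had a mean of at least 0.5 RPKM over the 20 libraries and were tested. RPKM is a level that counts reads relative to gene length and library size. The sources used here give no strain, age or sex, no description of the knockout allele and no statement that each library is 1 animal, so a p-value speaks for the spread among these libraries, which may be technical.

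Nrsn2 encodes neurensin 2, a small membrane protein of neuronal vesicles. The hippocampus is a forebrain region for memory and for the control of stress hormones, and repeated defeat by an aggressor is a standard way to bring on avoidance and anxiety-like behaviour in mice. In such a design the genotype difference is an interaction. A gene can show it because defeat moved it in 1 genotype, because defeat moved it in opposite directions, or because the control groups already stood apart and the defeated groups did not. The level in each of the 4 groups is therefore given with each difference.

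The libraries held an estimated 25.65 to 55.68 M reads. Nrsn2 itself was not lower under the knockout label, at 29.1 ± 2.42 RPKM in control and 29.7 ± 2.55 in defeated WT mice, and 31.2 ± 1.93 and 34.1 ± 2.34 for the label (SD, n = 5 each). Its own difference of effects was 0.10 ± 0.09 on the log2 scale (SE, adjusted p = 0.733). The labels do not say which part of the gene was altered, so the genotype is called the knockout label throughout. Control 10 of each genotype was the only library of its group with high Xist, at 56.5 RPKM in WT and 48.2 in the knockout label, against at most 0.0618 RPKM in the 18 other libraries. Xist is the RNA that silences the second X chromosome of females, so sex was not balanced between control and CSDS. Another 3 libraries, WT 9B and KO 11 and 10B, have a title that says control and a treatment entry that says CSDS. The series' design text counts more mice after CSDS than among controls. They were left out, and values with them are given below.

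At an adjusted p under 0.05 the difference of effects was called for 27 genes, 0.148% of those tested. Of these, 11 had a positive difference (0.0602%) and 16 a negative one (0.0876%). For a difference of effects, higher and lower mean this sign and not the level under the knockout label. In addition, 2092 genes (11.5%) had an unadjusted p under 0.05. Defeat moved every one of the 27 called genes more in WT than under the knockout label. Their median absolute effect was 0.60 in WT and 0.14 under the knockout label on the log2 scale, against 0.09 and 0.08 over all genes tested. The call was made from these same effects, so the contrast with all genes describes it and is not a test. The largest effect of a called gene under the knockout label was that of Rec8, at 0.67. In 14 of the 27 the 2 effects had opposite signs, and 7 differed by at least 1 on the log2 scale.

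**Figure D1:**
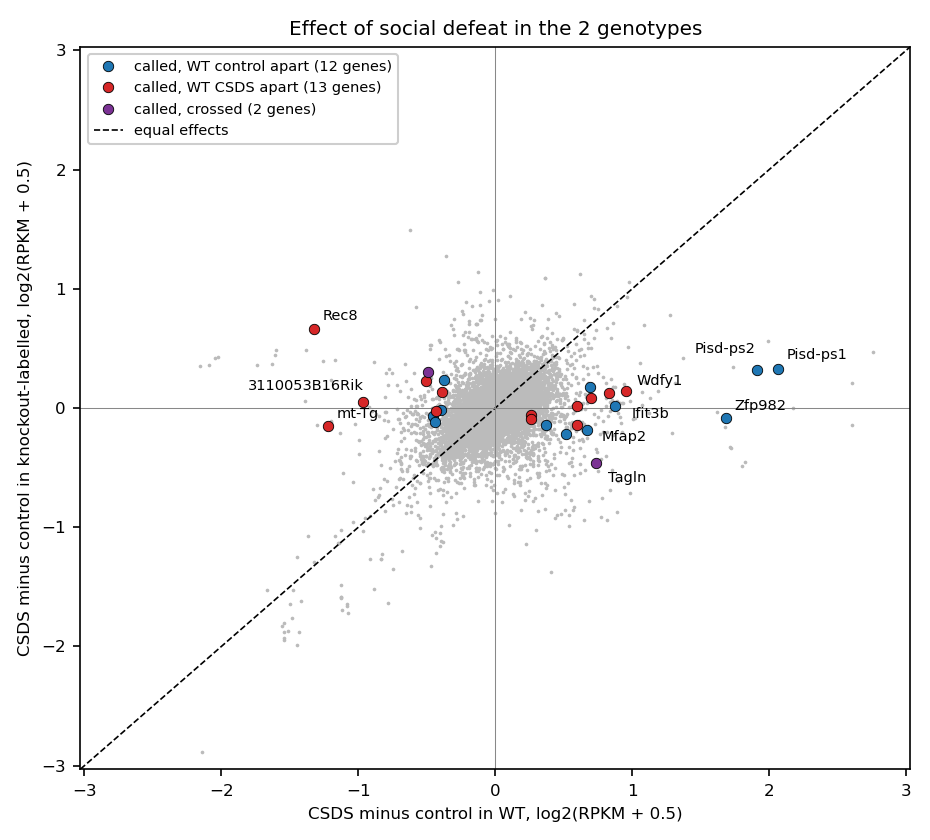
Effect of social defeat in WT (horizontal axis) and under the knockout label (vertical axis), each as CSDS minus control on log2(RPKM + 0.5), for 18263 genes (grey points). The 27 called genes are coloured by the group that stood apart and lie along the horizontal axis, since their effects were larger in WT; genes with an absolute difference of at least 0.8 are named.

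For each called gene the 4 group means were split in the way that left the least variation, to find which group stood apart from the others. WT controls stood apart for 12 genes and defeated WT mice for 13. The remaining 2, Tagln and 1700048O20Rik, were crossed, with WT controls and defeated knockout-labelled mice on one side. By this split, which gives each gene a single label, a WT group stood apart for 25 of 27 genes (92.6%) and a knockout-labelled group for 0. Defeated knockout-labelled mice nevertheless lay above all other libraries used for B230217O12Rik, at 4.88 to 5.39 RPKM. The split has no class for genes such as Pisd-ps1 and Pisd-ps2, where the WT groups lay on opposite sides of all knockout-labelled libraries used. In single libraries, WT controls and defeated WT mice did not overlap for 25 of the 27 genes, against 17.1% of all genes. The 2 knockout-labelled groups did not overlap for 6, against 12.9% of all genes. Between genotypes, the defeated groups did not overlap for 19 genes, against 5.45% of all, and the control groups for 12, against 4.96%. The split into groups and these overlaps read the same values as the call. They describe the called genes, and their contrast with all genes is not a test.

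**Figure D2:**
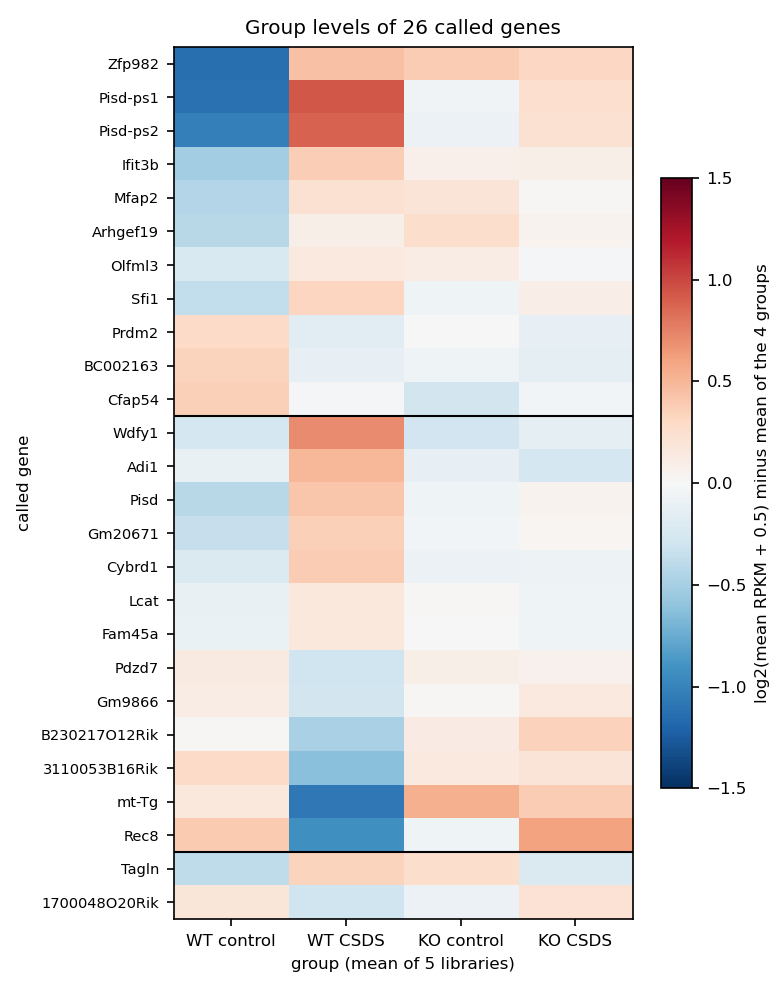
Mean level of 26 of the 27 called genes in the 4 groups (n = 5 libraries each), as log2(mean RPKM + 0.5) minus the mean of the 4 groups. Black lines separate the 11 genes for which WT controls stood apart (top), the 13 for which WT CSDS did (middle) and the 2 crossed genes (bottom); the strongest colours are in the 2 WT columns.

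The smallest p belonged to Rec8, which encodes the cohesin subunit used in meiosis (ENSMUSG00000002324, chromosome 14, 55618037 to 55625395, mm10). It lies under the level of 1 RPKM that the naming rule asks for and was chosen after its values were seen. Rec8 read 0.855, 1.43, 1.06, 1.01 and 1.3 RPKM in WT controls and 0.26, 0.0734, 0.166, 0.0345 and 0.236 after defeat. The knockout-labelled libraries read 0.59, 0.497, 0.868, 0.637 and 0.829 in controls and 1.2, 1.02, 1.81, 1.32 and 1.57 after defeat. The control and defeated groups did not overlap in either genotype, and the direction was opposite. Rec8 fell by 1.32 ± 0.13 (log2, SE) in WT (adjusted p = 2.72e-06) and rose by 0.67 ± 0.13 under the knockout label (adjusted p = 0.00172). The difference was 1.99 ± 0.19 (95% interval 1.60 to 2.37, adjusted p = 3.64e-05), and 3.27 with a pseudocount of 0.1 in place of 0.5, since the level is low. No stretch of 75 bases, the read length, in its transcripts occurs in another gene.

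The mitochondrial glycine tRNA gene mt-Tg (ENSMUSG00000064359, chrMT:9391-9458, plus strand) was the most abundant of the called genes by RPKM. Transfer RNAs are short and lack a long poly(A) tail, so what its reads stand for in libraries selected for poly(A) RNA is not known. The gene, shorter than the 75-base reads, is shown whole from the mm10 sequence.

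mt-Tg: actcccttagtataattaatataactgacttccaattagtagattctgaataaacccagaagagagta

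mt-Tg read 255, 283, 239, 249 and 191 RPKM in WT controls and 104, 102, 111, 96.4 and 104 after defeat. The knockout-labelled libraries read 298, 321, 351, 325 and 281 in controls and 245, 348, 306, 266 and 260 after defeat. The 5 defeated WT libraries lay below all 15 others. It fell by 1.22 ± 0.10 in WT (adjusted p = 2.36e-07) and changed by −0.15 ± 0.10 under the knockout label (adjusted p = 0.291), a difference of 1.07 ± 0.14 (adjusted p = 0.000631). The list of mitochondrially encoded genes holds the protein and ribosomal RNA genes and no transfer RNA. Of its 15 genes 0 were called and 1 had an unadjusted p under 0.05 (11.5% of all genes). Their median difference was −0.11, against −0.004 over all genes.

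Adi1, an enzyme of the methionine salvage pathway, read 11.5, 12.4, 11.8, 11.6 and 12.4 RPKM in WT controls and 18, 20.5, 15.2, 21.2 and 17.4 after defeat. Its 10 knockout-labelled libraries lay between 9.96 and 12.6. Defeat raised it by 0.60 ± 0.06 in WT (adjusted p = 6.41e-06) and the difference was −0.74 ± 0.09 (adjusted p = 0.000528). Wdfy1, a phosphoinositide-binding protein of early endosomes, rose from 3.89 ± 0.13 to 8.09 ± 1.27 RPKM in WT (SD, n = 5). It stood at 3.80 ± 0.19 and 4.25 ± 0.10 RPKM under the knockout label, and the difference was −0.81 ± 0.10 (adjusted p = 0.000528). The 5 defeated WT libraries, at 6.54 to 9.26 RPKM, again lay outside the range of all others. Wdfy1 overlaps Mrpl44 on the other strand and these libraries do not keep strand, but Mrpl44 had a difference of 0.02 ± 0.07 (adjusted p = 0.953).

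**Figure D3:**
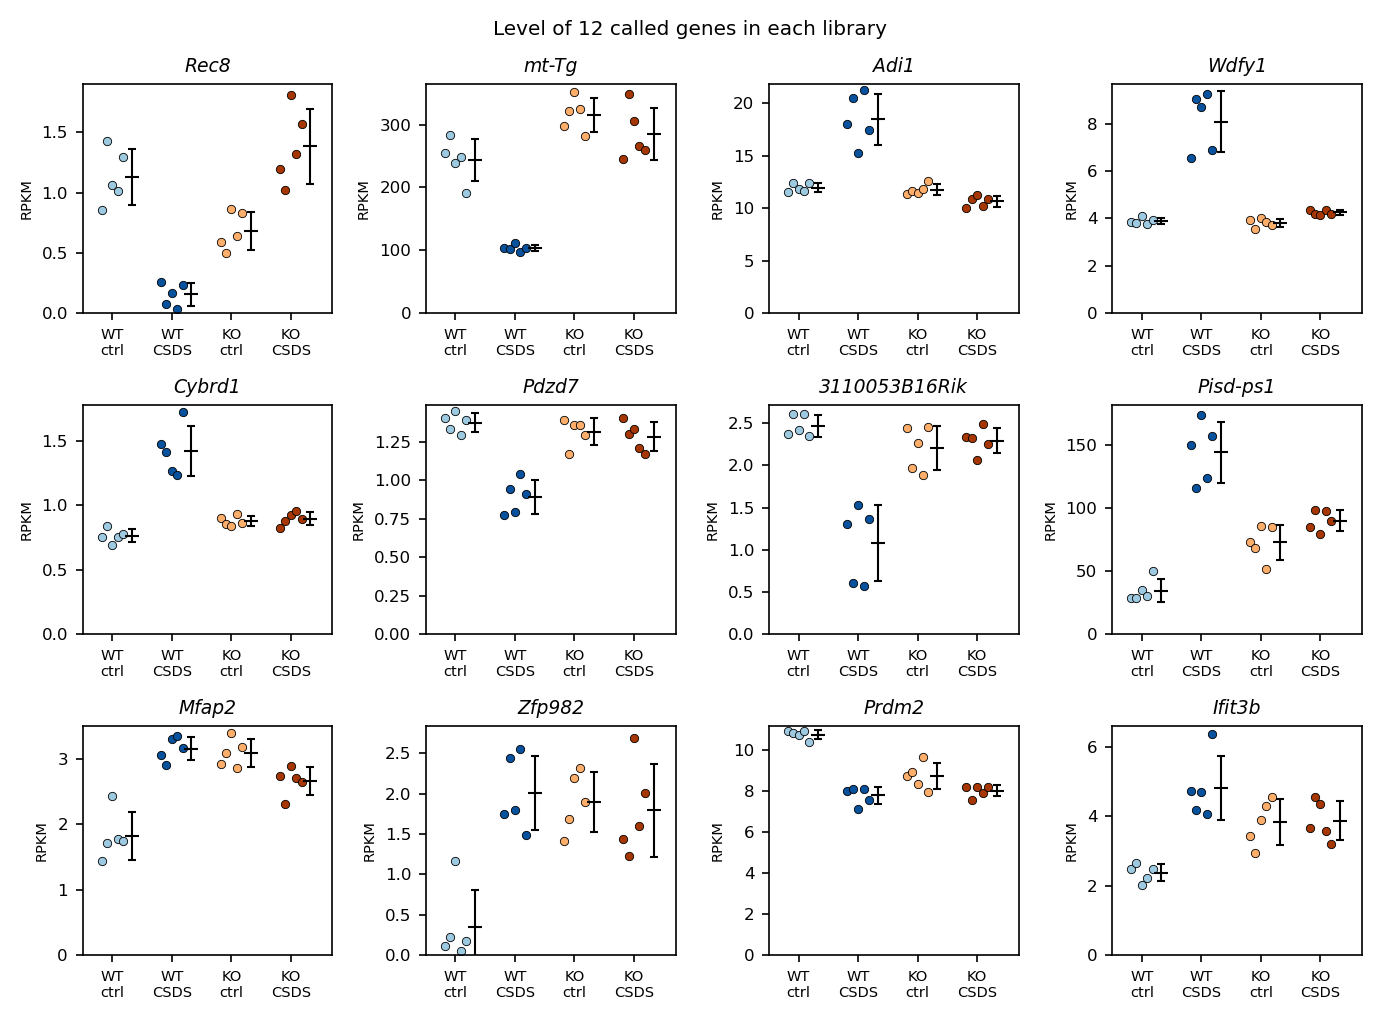
Level of 12 called genes in each of the 20 libraries, in RPKM (points), with the group mean and SD (bar). In the first row and in Cybrd1, Pdzd7 and 3110053B16Rik the defeated WT libraries stand apart. In Mfap2, Zfp982, Prdm2 and Ifit3b the WT controls do, with WT control 8 high in Mfap2 and Zfp982. In Pisd-ps1 both WT groups stand apart, on opposite sides of the knockout-labelled libraries.

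Phosphatidylserine decarboxylase, which makes phosphatidylethanolamine in mitochondria, is encoded by Pisd, and several pseudogene copies lie elsewhere in the genome. Pisd, 2 of the copies and an overlapping gene model were called. Pisd-ps1 (ENSMUSG00000082286, chromosome 11, 3125904 to 3131004) read 28.5, 28.6, 35, 30.3 and 50.1 RPKM in WT controls and 150, 116, 174, 124 and 157 after defeat. Under the knockout label it read 73.1, 68, 85.8, 51.8 and 85 in controls and 84.7, 98.6, 79.7, 97.3 and 90.1 after defeat. Both knockout-labelled groups lay between the WT groups, and control 10 was the highest of the WT controls. The rise in WT was 2.07 ± 0.16 (adjusted p = 1.68e-07), and the value under the knockout label was 0.32 ± 0.16 (adjusted p = 0.153). Their difference was −1.74 ± 0.22 (adjusted p = 0.000532).

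Pisd-ps2, on chromosome 17, had the same order of groups, with means of 12.03 ± 2.65, 46.5 ± 7.7, 23.5 ± 4.02 and 29.2 ± 2.1 RPKM in WT controls, defeated WT, knockout-labelled controls and defeated knockout-labelled mice. Its difference was −1.59 ± 0.19 (adjusted p = 0.000528). Pisd itself, on chromosome 5, went from 16.2 ± 1.10 to 29.4 ± 2.79 RPKM in WT, against 20.9 ± 2.05 and 22.7 ± 0.67 under the knockout label. Its difference was −0.71 ± 0.09 (adjusted p = 0.000787). Gm20671, a gene model on the same strand that was chosen after its values were seen, spans Pisd and its neighbour Prr14l and had a difference of −0.62 ± 0.08 (adjusted p = 0.000528). Of its 75-base stretches, 65.7% also occur in Pisd and 30.2% in Prr14l, so its reads cannot be told apart from theirs. Prr14l alone had a difference of −0.05 ± 0.08 (adjusted p = 0.874). The copies themselves share few such stretches, 2.6% for Pisd-ps1, 4.9% for Pisd-ps2 and 17.0% for Pisd including Gm20671. Sfi1, which encodes a centrosomal protein that binds centrin, starts 846 bases from Pisd-ps1 and moved the same way. It rose from 4.85 ± 0.50 to 8.13 ± 0.73 RPKM in WT, against 6.08 ± 0.64 and 6.90 ± 0.33 under the knockout label, with a difference of −0.52 ± 0.10 (adjusted p = 0.0498).

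Within 6.5 Mb near the end of chromosome 4 (141010418 to 147513486, mm10) lay 4 called genes (0.148% of all genes were called). In this span 66 genes were tested and 21 had an unadjusted p under 0.05 (11.5% of all genes). The span was drawn from the first to the last of the called genes, so it holds them by construction and its counts do not test position. For all 4 called genes, WT controls stood apart from the 3 other groups. Mfap2, a protein of elastic microfibrils, read 1.44, 1.71, 2.43, 1.77 and 1.74 RPKM in WT controls and 2.91 to 3.35 after defeat. Knockout-labelled controls read 2.87 to 3.4 and their defeated counterparts 2.31 to 2.9. Its difference was −0.86 ± 0.11 (adjusted p = 0.00088). Zfp982, a zinc finger gene, read 0.112, 0.22, 1.17, 0.044 and 0.169 RPKM in WT controls, while the 15 other libraries lay between 1.23 and 2.69. Its difference was −1.77 ± 0.34 (adjusted p = 0.045), and −2.80 with a pseudocount of 0.1 (adjusted p = 0.0527). The value of 1.17 belonged to WT control 8, which was also the WT control nearest to the other groups for Mfap2 and for Arhgef19, a guanine nucleotide exchange factor (2.91 RPKM against 1.91 to 2.22).

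Arhgef19 was lower in WT controls than elsewhere (difference −0.73 ± 0.12, adjusted p = 0.0116). Prdm2, a histone methyltransferase, was higher there, at 10.7 ± 0.20 RPKM against 7.78 ± 0.43 in defeated WT and 8.72 ± 0.64 and 8.01 ± 0.28 under the knockout label (difference 0.33 ± 0.06, adjusted p = 0.0308). Without WT control 8, 68 genes were called in all, and Zfp982 had a difference of −2.05 (adjusted p = 0.000217). The labels do not name litters or colonies, so whether position on the chromosome bears on these values was not tested.

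Chromosome 12 held 3 called genes between 20874125 and 28682175, a span again drawn from the first to the last of them. In it 33 genes were tested and 12 had an unadjusted p under 0.05 (11.5% of all genes). The called genes were Adi1, described above, and 2 transcripts without a protein name, chosen after their values were seen. Defeated WT mice stood apart for all 3. The pseudogene 3110053B16Rik read 1.31, 0.609, 1.53, 0.57 and 1.36 RPKM in defeated WT mice and 1.89 to 2.61 in the 15 other libraries (difference 1.02 ± 0.20, adjusted p = 0.0498). It overlaps Zfp125 on the same strand, which read 2.09, 0.451, 2.23, 0.486 and 2.28 RPKM in defeated WT mice and at least 2.62 in every other library. The difference of Zfp125 did not pass the test (1.17 ± 0.35, adjusted p = 0.19). Gm9866, a long noncoding RNA, read 8.86, 7.08, 8.82, 6.83 and 8.34 RPKM in defeated WT mice and at least 9.24 elsewhere (difference 0.53 ± 0.09, adjusted p = 0.0182). In each of these genes CSDS 2 and 4 of WT were the farthest from the other groups, and in Adi1 they were the highest. Pxdn, a peroxidase of the basement membrane on the same chromosome, lay just outside the threshold (0.37 ± 0.07, adjusted p = 0.051).

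On chromosome 19, between 57323193 and 60836227, 2 of 24 genes tested were called (0.148% of all genes). In the same span 11 had an unadjusted p under 0.05 (11.5% of all genes). This span too was drawn from 1 called gene to the other. The long noncoding RNA B230217O12Rik, chosen after its values were seen, read 3.57 to 4.38 RPKM in WT controls and 2.22 to 2.9 after defeat. Under the knockout label it read 4.21 to 4.51 in controls and 4.88 to 5.39 after defeat, so neither pair of groups overlapped and the directions were opposite. It fell by 0.51 ± 0.06 in WT (adjusted p = 6.8e-06) and rose by 0.23 ± 0.06 under the knockout label (adjusted p = 0.00748), a difference of 0.73 ± 0.08 (adjusted p = 0.000133). Fam160b1, which overlaps it on the other strand, had a difference of 0.15 ± 0.05 (adjusted p = 0.215). Fam45a went from 4.40 ± 0.14 to 5.37 ± 0.32 RPKM in WT, against 4.73 ± 0.12 and 4.54 ± 0.21 under the knockout label (difference −0.32 ± 0.05, adjusted p = 0.0137).

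Among the other called genes, Cybrd1, a membrane reductase for iron, read 0.693 to 0.841 RPKM in WT controls and 1.23 to 1.72 after defeat. All 10 knockout-labelled libraries lay between 0.824 and 0.957. Its difference was −0.58 ± 0.08 (adjusted p = 0.00274), and it was chosen after its values were seen. Pdzd7, a scaffold protein of hair-cell stereocilia, fell from 1.37 ± 0.06 to 0.89 ± 0.11 RPKM in WT, against 1.31 ± 0.09 and 1.28 ± 0.09 under the knockout label (difference 0.41 ± 0.08, adjusted p = 0.0498). Lcat, the plasma enzyme that esterifies cholesterol, rose from 13.4 ± 0.93 to 16.1 ± 0.62 RPKM in WT, against 14.6 ± 0.65 and 13.7 ± 0.57 (difference −0.35 ± 0.06, adjusted p = 0.0154).

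Cfap54, a gene of motile cilia, was the called gene in which both effects passed the test in opposite directions with WT controls apart. It fell from 1.42 ± 0.23 to 0.97 ± 0.08 RPKM in WT and rose from 0.74 ± 0.05 to 0.96 ± 0.10 under the knockout label (difference 0.61 ± 0.11, adjusted p = 0.0188). The defeated groups overlapped, and the lowest WT control, at 1.02 RPKM, was again control 8. Of the 14 ependymal and cilium genes tested 0 were called, while 4 were higher and 0 lower at an unadjusted p under 0.05 (5.39% of all genes were higher). In that list 10 of the 14 differences were positive, as for Cfap54, and the median was 0.12. The noncoding RNA 1700048O20Rik, chosen after its values were seen, also changed in opposite directions, by −0.49 ± 0.09 in WT (adjusted p = 0.000984) and 0.31 ± 0.09 under the knockout label (adjusted p = 0.0256). BC002163, a pseudogene of the respiratory chain gene Ndufs5, likewise chosen after its values were seen, shares 59.6% of its 75-base stretches with Ndufs5. It fell from 110 ± 8.94 to 80.0 ± 2.11 RPKM in WT, against 83.6 ± 5.53 and 79.7 ± 3.25 (difference 0.39 ± 0.07, adjusted p = 0.026). Ndufs5 went the other way, with a difference of −0.31 ± 0.08 (adjusted p = 0.119).

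Interferons switch on a set of antiviral genes through transcription factors that bind the interferon-stimulated response element (ISRE), a DNA element with 2 GAAA repeats. The interferon-induced gene Ifit3b read 2.47, 2.67, 2.03, 2.23 and 2.49 RPKM in WT controls and 4.74, 4.18, 4.72, 4.08 and 6.38 after defeat. The knockout-labelled libraries read 3.44, 2.95, 3.91, 4.31 and 4.57 in controls and 3.68, 4.56, 4.36, 3.58 and 3.21 after defeat. Among the libraries used, all WT controls were below all others. The difference was −0.86 ± 0.17 (adjusted p = 0.0478), and 35.7% of its 75-base stretches also occur in its neighbour Ifit3. Ifit3 had the same order of groups, at 3.62 ± 0.43, 7.38 ± 1.89, 6.14 ± 1.40 and 5.72 ± 0.92 RPKM, and its difference did not pass the test (−0.99 ± 0.22, adjusted p = 0.0705).

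Their promoters, 250 bases before to 50 after the start of transcription, are shown because the 2 genes moved together. They come from RefSeq on GRCm38.p6, plus strand, at chr19:34607707-34608006 for Ifit3b and chr19:34583279-34583578 for Ifit3. Capitals mark matches to the core of the ISRE on either strand, taken as 2 GAAA repeats with 2 bases between them.

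Ifit3b: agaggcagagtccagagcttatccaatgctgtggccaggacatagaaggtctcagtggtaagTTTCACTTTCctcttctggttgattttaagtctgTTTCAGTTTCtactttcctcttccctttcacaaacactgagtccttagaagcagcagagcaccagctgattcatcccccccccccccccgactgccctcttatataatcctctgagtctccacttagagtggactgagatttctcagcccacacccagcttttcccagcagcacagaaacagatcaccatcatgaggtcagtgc

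Ifit3: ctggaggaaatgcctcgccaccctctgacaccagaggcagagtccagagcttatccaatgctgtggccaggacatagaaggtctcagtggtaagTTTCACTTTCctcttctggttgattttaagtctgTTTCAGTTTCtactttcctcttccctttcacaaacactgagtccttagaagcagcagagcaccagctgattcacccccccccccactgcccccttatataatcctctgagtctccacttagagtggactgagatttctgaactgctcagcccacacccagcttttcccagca

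Both hold 2 matches, in the same letters. Of 32851 promoters of this length, 3.44% hold at least 1. Counted by gene, 1079 of 27025 genes have such a promoter, and 13 of the 28 interferon and antigen presentation genes in that set do. In that list of 32 genes tested, 0 were called, 17 were lower at an unadjusted p under 0.05 (6.06% of all genes) and 0 were higher. Without WT control 10, 4 of the 32 were called lower (0.871% of all genes), and without control 7 of the knockout label 2 were (0.109%). Ifit3b is not on the list. The list's median difference was −0.32, from medians of 0.11 in WT and −0.23 under the knockout label. The membrane protein Ifitm3 differed by −0.90 ± 0.25 (adjusted p = 0.145) and the factor Irf7 by −0.40 ± 0.12 (adjusted p = 0.188).

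Tagln, the smooth muscle protein transgelin, was the called gene among 16 pericyte and smooth muscle genes tested (0.0876% of all genes were called lower). It read 2.54, 2.7, 3.41, 3.06 and 4.93 RPKM in WT controls and 5.21, 5.19, 7.35, 4.66 and 6.57 after defeat. For the label the values were 5.5, 3.52, 5.89, 7.04 and 5.61 in controls and 4.11, 3.12, 4.53, 3.43 and 3.78 after defeat. The groups overlapped within each genotype. Defeat raised it by 0.73 ± 0.17 in WT (adjusted p = 0.00399) and the value under the knockout label was −0.47 ± 0.17 (adjusted p = 0.0572), a difference of −1.20 ± 0.24 (adjusted p = 0.0498). An antisense transcript covers 51.6% of its 75-base stretches, and the strand is not kept. On the list, 9 genes were lower and 0 higher at an unadjusted p under 0.05 (6.06% and 5.39% of all genes). The list's median difference was −0.30. The myosin light chain Myl9 differed by −0.71 ± 0.17 (adjusted p = 0.0967) and the myosin heavy chain Myh11 by −0.64 ± 0.19 (adjusted p = 0.188).

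The genes of the meninges, the membranes around the brain, had the lowest median difference of any list with 8 or more genes tested. Of 23 meningeal fibroblast and matrix genes none was called by limma. At an unadjusted p under 0.05, 19 were lower and 0 higher (6.06% and 5.39% of all genes). All 23 differences were negative (9468 of all 18263 were), with a median of −1.21 against −0.004 over all genes. Leaving out WT control 10 gave 13 of the 23 called lower (0.871% of all genes), and leaving out WT control 8 gave 1 (0.203%). The median effect of defeat was 0.51 in WT, where 0 of 23 rose or fell (10.4% of all genes rose there and 13.1% fell), and −0.72 under the knockout label, where 8 fell and 0 rose (10.9% and 8.26% of all genes). Lum, a collagen-binding proteoglycan, read 1.29, 1.84, 3.11, 2.24 and 4.01 RPKM in WT controls and 3.53, 3.2, 3.15, 3.36 and 4.65 after defeat. Under the knockout label it read 3.31, 2.6, 3.52, 3.63 and 4.15 in controls and 2.14, 1.5, 2.54, 1.62 and 1.72 after defeat. The WT groups overlapped and the knockout-labelled groups did not. Its difference was −1.22 ± 0.27 (adjusted p = 0.0705). Dcn, a related proteoglycan, stood at 26.2 ± 9.19 and 26.0 ± 2.76 RPKM in WT and fell from 34.2 ± 2.96 to 19.5 ± 1.42 under the knockout label (difference −0.84 ± 0.23, adjusted p = 0.141). The transporter Slc6a13 differed by −1.78 ± 0.48 (adjusted p = 0.141) and the transcription factor Foxc1 by −0.72 ± 0.17 (adjusted p = 0.0824).

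**Figure D4:**
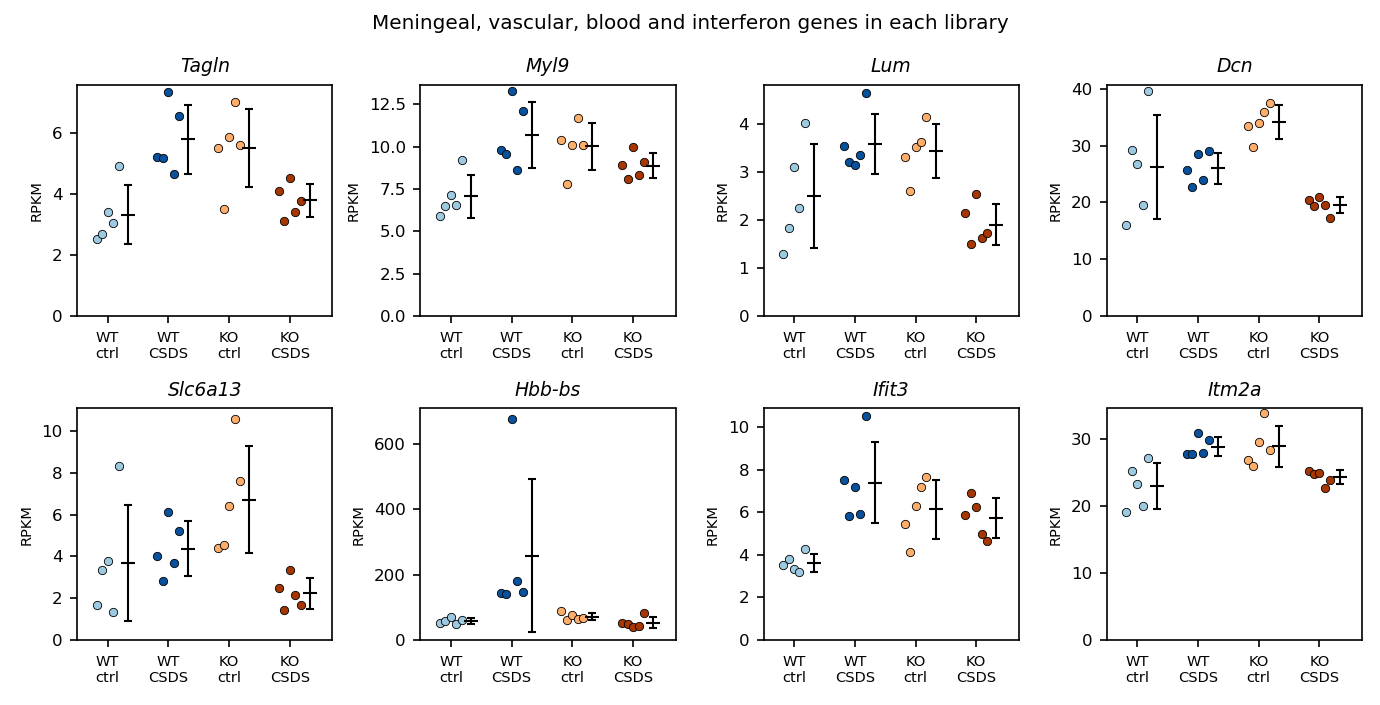
Level of 8 genes of vessels, meninges, blood and the interferon response in each of the 20 libraries, in RPKM (points), with the group mean and SD (bar). WT controls spread widely in Lum, Dcn and Slc6a13, with control 10 highest, and CSDS 3 of WT stands at 676 RPKM in Hbb-bs; of the 8 genes Tagln passed the test of the difference.

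How much meninges and choroid plexus a dissected hippocampus carries can vary, and fewer cells of a type and less RNA per cell cannot be told apart in bulk tissue. The summed RPKM of the meningeal list ran from 199.5 to 929.1 in WT controls, 481.2 to 893.4 in defeated WT, 443.7 to 1094 in knockout-labelled controls and 239.8 to 551.5 in defeated knockout-labelled mice. The choroid plexus list ran from 95.02 to 5928, 3528 to 4538, 776 to 5341 and 676.7 to 4587 in the same order. WT control 6 set the lowest value, with Ttr, the thyroxine carrier of the choroid plexus, at 16.9 RPKM against 1480 to 4740 in the other WT controls. Of 24 choroid plexus genes 0 were called and 0 had an unadjusted p under 0.05, with a median difference of −0.73, which was −0.11 without WT control 6 and −0.42 without CSDS 2 of the knockout label. Ttr differed by −1.83 ± 1.56 (adjusted p = 0.697), and by −0.37 without WT control 6. The part of these tissues in the differences of other genes was not tested.

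Of 26 endothelial genes 0 were called and 10 were lower at an unadjusted p under 0.05 (6.06% of all genes), with a median difference of −0.22. Leaving out WT control 10 gave 2 called lower (0.871% of all genes), and leaving out WT control 8 or control 7 of the knockout label gave 1 (0.203% and 0.109%). The nearest to the threshold was Itm2a, a membrane protein, at 23.04 ± 3.44, 28.9 ± 1.43, 29.0 ± 3.06 and 24.4 ± 1.02 RPKM in WT controls, defeated WT, knockout-labelled controls and defeated knockout-labelled mice (−0.57 ± 0.12, adjusted p = 0.0523). The receptor Tek differed by −0.40 ± 0.13 (adjusted p = 0.213), the clotting factor Vwf by −0.64 ± 0.23 (adjusted p = 0.262) and the lactate transporter Slc16a1 by −0.22 ± 0.08 (adjusted p = 0.253).

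Microglia, the macrophages of the brain, had 1 called gene of 23 (0.0876% of all genes were called lower). All 23 differences were negative (9468 of all 18263 were), with a median of −0.17. The called gene was Olfml3, a secreted protein made by microglia. It read 2.83, 2.78, 2.9, 2.81 and 3.36 RPKM in WT controls and 3.66 to 4.18 after defeat. Knockout-labelled controls read 3.38 to 4.25 and defeated mice 3.28 to 3.61. The highest WT control was control 10. Its difference was −0.52 ± 0.08 (adjusted p = 0.00375). P2ry12, the purine receptor of resting microglia, rose from 10.8 ± 0.61 to 15.1 ± 1.37 RPKM in WT, against 12.2 ± 1.21 and 13.2 ± 1.24 under the knockout label (difference −0.35 ± 0.10, adjusted p = 0.172). The complement gene C1qa differed by −0.30 ± 0.11 (adjusted p = 0.296) and Mrc1, a macrophage receptor found at vessels and meninges, by −0.75 ± 0.22 (adjusted p = 0.177). The summed level of the list overlapped between all 4 groups, from 234.8 to 280.1 and 265.8 to 307 RPKM in WT and from 256.8 to 294.9 and 241 to 278.3 under the knockout label.

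Haemoglobin genes had the largest differences just outside the threshold, and were chosen after their values were seen. Hbb-bs read 51.8, 59.7, 71.7, 47.9 and 62.6 RPKM in WT controls and 145, 142, 676, 182 and 148 after defeat. The knockout label read 88.9, 59.9, 77.2, 64.1 and 67 in controls and 52.9, 48.9, 40.1, 42.7 and 81.9 after defeat. All 5 defeated WT libraries were above the other 15, and CSDS 3 was far above the rest. The difference was −2.27 ± 0.45 (adjusted p = 0.051). Hbb-bt (−2.29 ± 0.46, adjusted p = 0.0519), Hba-a1 (−2.04 ± 0.46, adjusted p = 0.0745), Hba-a2 (−2.05 ± 0.47, adjusted p = 0.0758) and the haem enzyme Alas2 (−1.504 ± 0.41, adjusted p = 0.145) followed. Haemoglobin copies share 51.5% to 84.6% of their 75-base stretches. Over the 7 red blood cell genes tested the median difference was −2.04. It was −1.60 with 5 genes called when CSDS 3 of WT was left out (32 of all 18266 genes tested there were called). The part of blood left in the tissue in these values was not tested.

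A list of genes taken to vary between C57BL/6 substrains and colonies had 10 genes tested. It held 3 of the 16 genes called lower, Pisd-ps1, Pisd-ps2 and Wdfy1 (0.0876% of all genes were called lower). The list was chosen with earlier results of these data known, so this count describes it and is not a test. With the libraries of conflicting label placed by treatment field, 0 of the 10 were called. Gabra2, the GABA-A receptor subunit alpha 2, differed between genotypes in every group. It stood at 49.0 ± 6.02 and 50.4 ± 2.82 RPKM in WT and fell from 23.2 ± 1.84 to 17.9 ± 0.55 under the knockout label (difference −0.41 ± 0.10, adjusted p = 0.103). Ide, which encodes insulin-degrading enzyme and was chosen after its values were seen, varied within groups. It read 17.4, 13.4, 12.9, 17.4 and 8.71 RPKM in WT controls and 8.47 to 9.05 after defeat. Under the knockout label it read 8.6, 8.1, 8.16, 8.24 and 12.6 in controls and 13.6, 8.49, 12.7, 9 and 13.3 after defeat. Its libraries thus lay near 8 to 9 RPKM or at 12.6 and above in 3 of the 4 groups, with control 10 of each genotype on the other side from its group, and the difference was 0.89 ± 0.24 (adjusted p = 0.131). Outside the list, Tmem254b, all of whose 75-base stretches occur in another copy, differed by −0.69 ± 0.14 (adjusted p = 0.058), and the imprinted gene Ndn by −0.79 ± 0.17 (adjusted p = 0.0636), both chosen after their values were seen.

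Lists of neuronal activity and cell stress held no called difference. Immediate early genes, which neurons switch on within minutes of activity, had a median effect of −0.32 in WT and −0.25 under the knockout label, and 22 and 15 of 31 fell (13.1% and 10.9% of all genes fell). None of the 31 was called by limma for the difference, 2 were higher at an unadjusted p under 0.05 (5.39% of all genes), and the median difference was 0.04. Fos, a subunit of the AP-1 transcription factor, read 3.8 to 5.79 RPKM in WT controls and 0.996 to 2.18 after defeat. Under the knockout label it read 2.64 to 5.13 in controls and 0.901 to 1.76 after defeat, so neither pair overlapped. Its difference was 0.29 ± 0.26, with a 95% interval from −0.26 to 0.84 (adjusted p = 0.713). Arc differed by 0.18 ± 0.21 (adjusted p = 0.791), Npas4 by 0.14 ± 0.19 (adjusted p = 0.826) and Bdnf, the neurotrophin, by −0.04 ± 0.06 (adjusted p = 0.858).

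Heat shock and chaperone genes fell by a median of 0.26 in WT and 0.19 under the knockout label, with 21 and 17 of 24 past the test. Endoplasmic reticulum stress genes had medians of −0.28 and −0.21, with 18 and 17 of 24 falling. Of all genes, 13.1% fell in WT and 10.9% under the knockout label. Neither the heat shock nor the endoplasmic reticulum list had a called difference. In them 6 and 3 genes were higher and 0 lower at an unadjusted p under 0.05 (5.39% of all genes were higher). Glucocorticoid targets had 0 of 25 genes called and 0 at an unadjusted p under 0.05. Fkbp5, a chaperone that dampens the glucocorticoid receptor, differed by 0.11 ± 0.10 (95% interval −0.09 to 0.31, adjusted p = 0.69), the kinase Sgk1 by −0.08 ± 0.30 (adjusted p = 0.941), the glucocorticoid receptor Nr3c1 by −0.07 ± 0.06 (adjusted p = 0.691) and the mineralocorticoid receptor Nr3c2 by 0.02 ± 0.09 (adjusted p = 0.96). The AMPA receptor subunits Gria1 and Gria2 differed by 0.01 ± 0.07 (adjusted p = 0.987) and 0.04 ± 0.07 (adjusted p = 0.887). A p that misses the threshold does not show equal effects, and for Sgk1 the interval ran from −0.71 to 0.54.

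**Figure D5:**
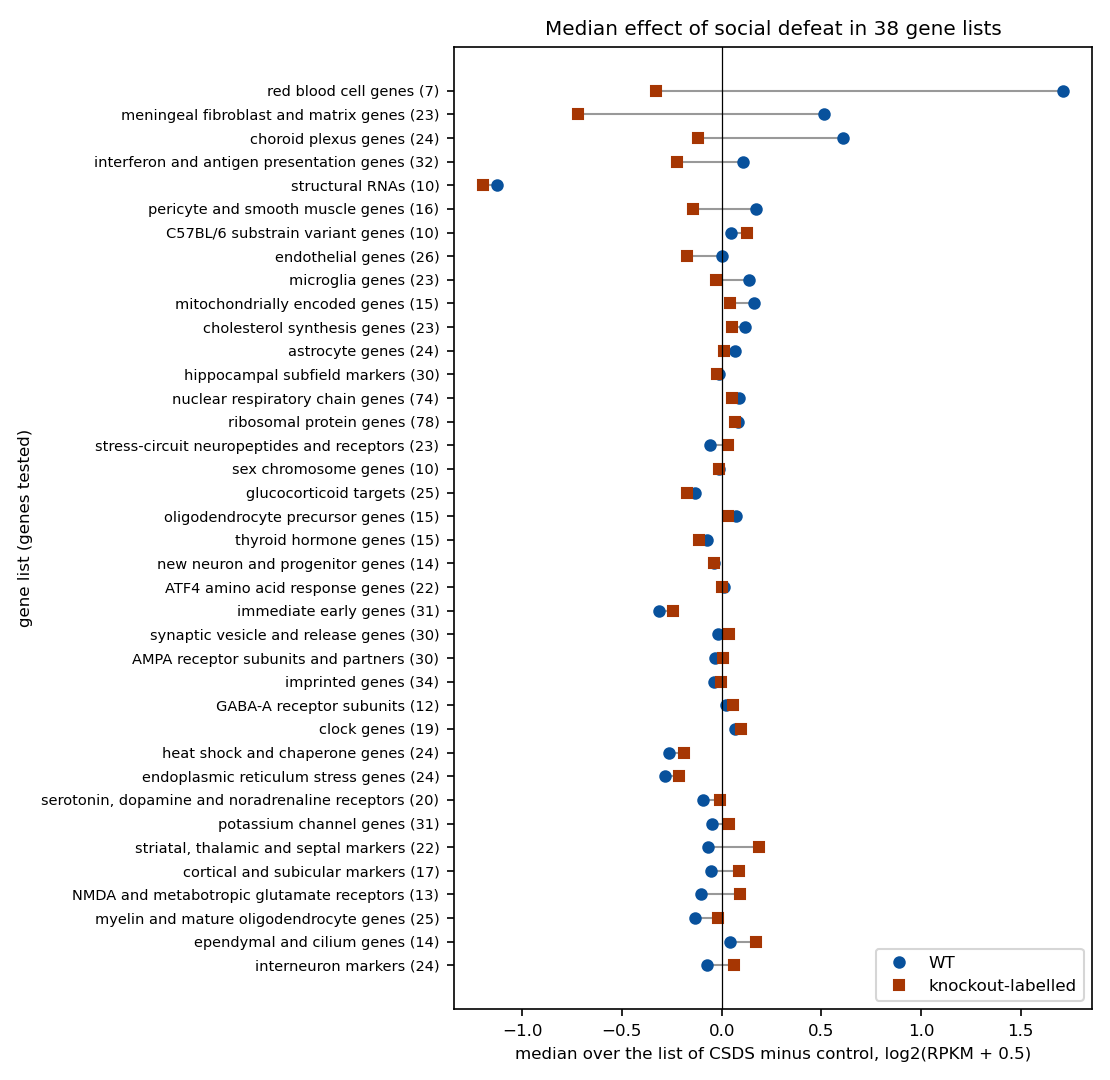
Median effect of social defeat (CSDS minus control, log2) in WT (circles) and under the knockout label (squares) for 38 gene lists, with the number of genes tested in brackets, ordered by the difference. Red blood cell and meningeal lists show the widest gaps, with medians of 1.71 and −0.33, and 0.51 and −0.72, while immediate early genes lie close together at −0.32 and −0.25.

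Interneuron markers had the highest median difference of the 38 lists, 0.14, with 0 of 24 called. At an unadjusted p under 0.05, 6 were higher and 2 lower (5.39% and 6.06% of all genes). Gad1, which makes the transmitter GABA, stood at 37.6 ± 4.05 and 37.5 ± 1.89 RPKM in WT and rose from 34.8 ± 1.13 to 41.8 ± 1.52 under the knockout label (difference 0.26 ± 0.08, adjusted p = 0.191). The vesicular GABA transporter Slc32a1 differed by 0.41 ± 0.14 (adjusted p = 0.239), and the transcription factors Dlx1 and Dlx6 by 0.38 ± 0.13 (adjusted p = 0.235) and 0.56 ± 0.21 (adjusted p = 0.304). The 2 lower markers were Tac1, at −0.27 (adjusted p = 0.311), and Htr3a, at −0.19 (adjusted p = 0.361). Sst (0.03) and Npy (−0.01) lay near 0. In the ependymal list the largest of the 4 named differences was that of Tmem212, at 0.54 ± 0.21 (adjusted p = 0.322), followed by Ccdc153 at 0.51 ± 0.20 (adjusted p = 0.304). Of 10 structural RNAs, 7 fell in WT (13.1% of all genes fell) and 9 under the knockout label (10.9%), with medians of −1.13 and −1.20 and 0 called for the difference. Of these, the 7SK RNA Rn7sk differed by −0.58 ± 0.43 (adjusted p = 0.648).

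With control 10 left out in both genotypes no library of high Xist remained, and 181 genes were called (0.992% of those tested), 73 higher (0.4%) and 108 lower (0.592%). They included all 27. The pattern changed with it, as 75 of the 181 were crossed, 89 had a WT group apart and 17 a knockout-labelled group. Genes of the vessels and meninges passed the test there, 6 of 23 meningeal, 4 of 26 endothelial, 4 of 16 pericyte and 2 of 23 microglia genes. All of these were lower, against 0.592% of all genes. Outside these lists, Hbb-bs (−2.32, adjusted p = 0.0427) and Hbb-bt (−2.33, adjusted p = 0.0428) passed too. The interneuron marker Dlx1 was called higher (0.49, adjusted p = 0.0423). Lum had a difference of −1.33 ± 0.24 (adjusted p = 0.0151), Itm2a of −0.64 ± 0.11 (adjusted p = 0.0126), Tek of −0.54 ± 0.09 (adjusted p = 0.0122) and Ide of 1.16 ± 0.17 (adjusted p = 0.00439). Leaving out WT control 10 alone gave 244 calls and leaving out control 10 of the knockout label alone gave 22, so the count rose where the WT library was left out and not where its knockout-labelled counterpart alone was. The lowest count, 16, was found without WT control 9, and 17 without CSDS 1 of the knockout label. Rec8, the Pisd family with Gm20671, Adi1, Wdfy1, mt-Tg and Mfap2 were called whichever library was left out. So were B230217O12Rik, Cybrd1, Olfml3, 1700048O20Rik, Arhgef19, Fam45a and Lcat.

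The 3 libraries of conflicting label decide the count too. Placed with the controls, as titled, they gave 98 called genes, of which 25 were among the 27. Placed with CSDS, as in the treatment field, they left 1 called gene, B230217O12Rik (0.65, adjusted p = 0.0232). Under that placement the difference of Rec8 was 1.62 (adjusted p = 0.126) and that of Pisd-ps1 −1.36 (adjusted p = 0.451), with the same signs. In the genes described above WT 9B read within or close to the WT controls, at 29.4 RPKM for Pisd-ps1, 1.03 for Rec8, 11.5 for Adi1, 3.59 for Wdfy1 and 200 for mt-Tg, and outside the range of the defeated WT mice for each. Knockout-labelled 11 and 10B read 0.688 and 0.828 RPKM for Rec8, within the range of their controls and below all defeated knockout-labelled mice. For Pisd-ps1 they read 90.9 and 92.4, within the range of the defeated mice. For B230217O12Rik they read 4.94 and 4.82, above all knockout-labelled controls used. For Ifit3b (2.28 and 2.45) and Tagln (2.62 and 2.4) they lay below every knockout-labelled library used. These values do not settle the labels.

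Some of these libraries lay close to others, and the labels do not say whether they are repeats. WT 9B, which shares its number with WT control 9, had a summed meningeal level of 196.3 RPKM against 199.5 in that library, 1911 against 1922 for the choroid plexus list and 1460 against 1480 for Ttr. Knockout-labelled 11 and 10B had 150.3 and 155 RPKM for the choroid plexus list and 1.6 and 1.45 for Xist, between the 18 libraries of low Xist and the 2 of high Xist. Over all genes tested, the SD of the log2 difference between the members was 0.204 in both pairs, against 0.193 to 0.353 between WT libraries of one group and 0.193 to 0.343 between knockout-labelled ones, so a few pairs of ordinary replicates were as close. The placements above count each library as a replicate. Averaging each pair into 1 library, an alternative chosen after seeing the data, gave 34 called genes by title, of which 24 were among the 27. By treatment field, with the knockout-labelled pair averaged and WT 9B left out, 64 genes were called, all 27 among them.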

How the data were processed

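Hippocampal poly(A) RNA was sequenced as 75 bp single-end reads with a TruSeq V2 kit, which does not keep strand, per the labels' protocols. Reads were aligned with STAR to mm10, per the submitters' processing notes. How reads were counted, and on which annotation, is not given in the sources used here. The authors deposited RPKM values in 1 table per genotype, with 39017 gene IDs in each, and 96.6% of these have the same coordinates in GENCODE M21. The tables were joined by gene ID. The authors' own comparisons in those tables were not used.

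Depth was estimated from low RPKM values of 11609 single-exon genes, where RPKM steps by the worth of 1 read, and 94.6 to 95.6% of these values were within 0.05 of a whole read. Values were fitted as log2(RPKM + 0.5) with limma 3.58.1 (trend, two-sided) in R 4.3.3, for genes averaging 0.5 RPKM or more, with all 4 groups in 1 fit and Benjamini-Hochberg adjustment over all genes tested. The script was tested on simulated data. Fold changes on this scale understate the change of low genes. Tables were written and figures drawn with Python 3.11.15. Differences are given with the SE and levels with the SD, n = 5 libraries per group. The effects in WT and under the knockout label share no library, while the other comparisons reuse libraries. Shared stretches were counted as 75-base words of GENCODE M21 transcripts.

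Named were, among genes past adjusted p 0.05 averaging 1 RPKM or more with a proper symbol, the 15 highest and 15 lowest differences, the 5 of smallest p in each group pattern, the 4 of smallest p in each list described (the 10 lists of largest absolute median with 8 or more genes tested, and lists with 2 or more called), and 12 stress genes. A few genes that it names are not reported here. Of 949 genes in 38 lists, 938 are in the tables. The comparison, the lists and the rule were chosen with earlier results of these data known. Alternatives covered the pseudocount, the filter, the normalization, the model, the replicate block, the libraries of conflicting label, control 10 and each library in turn.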

Additional observations from a re-analysis of the deposited data

Results flagged for a closer look

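The difference between the effects of defeat under the knockout label and in WT passed the test for 27 genes (limma, adjusted p under 0.05). On the log2 scale it was 1.99 for Rec8, 1.07 for mt-Tg, 1.02 for 3110053B16Rik, 0.79 for 1700048O20Rik, 0.73 for B230217O12Rik, 0.61 for Cfap54, 0.53 for Gm9866, 0.41 for Pdzd7, 0.39 for BC002163 and 0.33 for Prdm2. The difference, not the level under the knockout label, was negative for the rest. It was −1.77 for Zfp982, −1.74 for Pisd-ps1, −1.59 for Pisd-ps2, −1.20 for Tagln, −0.86 for Mfap2 and −0.86 for Ifit3b. Further values were −0.81 for Wdfy1, −0.74 for Adi1, −0.73 for Arhgef19, −0.71 for Pisd and −0.62 for Gm20671. The smallest were −0.58 for Cybrd1, −0.52 for Olfml3, −0.52 for Sfi1, −0.35 for Lcat and −0.32 for Fam45a.

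A library far from the 4 others of its group, by Dixon's test, was found in 23 of 344 groups of 5 for the genes named, and chance gives about 1 in 20. CSDS 3 of WT held 5 of them, all of red blood cells, with Hbb-bs at 676 RPKM against 142 to 182, Hbb-bt at 668, Hba-a1 at 654, Hba-a2 at 801 and Alas2 at 8.26. WT control 6 was low for the choroid plexus genes Ttr, at 16.9 against 1480 to 4740, and Kcne2, at 0.0824 against 6.69 to 16.8. WT control 8 was high for Zfp982, at 1.17 against 0.044 to 0.22, and low for Cfap54, at 1.02 against 1.46 to 1.59. WT control 10, of high Xist, was high for Pisd, at 18.2, and Olfml3, at 3.36, and low for Gabra2, at 38.6 against 48.7 to 53.1.

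Control 10 of the knockout label, also of high Xist, was high for BC002163, at 93.2, Ndufs5, at 77.4, and Ide, at 12.6 against 8.1 to 8.6, and low for Prr14l, at 7.01. CSDS 5 of the knockout label was high for BC002163, at 85.4, and Ndufs5, at 70.9. Control 9 of the knockout label was low for Gm20671, at 25.5, and high for Fkbp5, at 11.4 against 8.64 to 9.12. CSDS 2 of WT was high for the interneuron genes Slc32a1, at 21.6 against 15.9 to 17.2, and Dlx6, at 2.29 against 1.28 to 1.48. CSDS 5 of WT was high for Lum, at 4.65 against 3.15 to 3.53.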

How the results depend on the processing

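The count of called genes moved with the choice of libraries more than with the scale. It was 21 and 33 with pseudocounts of 0.1 and 1, 26 with a mean of at least 1 RPKM, 38 with median centring, 39 with quantile normalization (26 lower), 20 with robust moderation, 41 without the trend (28 lower), and 35 without a filter (18 higher). Array weights gave 172 (64 higher, 108 lower, 51.7% with a WT group apart). Leaving out control 10 of both genotypes gave 181 (73 higher, 108 lower, 49.2%). The libraries of conflicting label gave 98 by title (43 higher, 55 lower, 74.5%) and 1 by treatment field (1 higher, 0 lower, 100%). By treatment field with the close pair averaged and WT 9B left out, added after seeing the data, they gave 64 (21 higher, 43 lower, 68.8%). Without each library in turn the count ran from 16 to 244 (4 to 85 higher, 12 to 159 lower), and the share with a WT group apart from 41.8% to 96.9%. The lowest counts came without WT control 9, the highest without WT control 10, and the highest share without CSDS 3 of WT. The cause was not tested.

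Replicate numbers are shared between genotypes, and were not taken to pair the libraries, since the deviations of 3 of 10 same-numbered pairs correlated above 0.1 (range −0.107 to 0.371). These were controls 6, 8 and 10, at 0.21, 0.304 and 0.371. In all, 4 of 10 WT libraries correlated best with their own number. With the replicate block 23 genes were called, 7 higher and 16 lower, and 17 of them were among the 27. The 10 others had adjusted p-values of 0.064 to 0.127 with the block (limma), among them Cybrd1, Gm9866, Prdm2, Zfp982, Cfap54, BC002163, 3110053B16Rik, Ifit3b and Pdzd7.

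No called gene changed sign under the alternatives run, and the 22 changes of sign all fell on 5 genes near 0. Without each library in turn Gria1 ran from −0.026 to 0.046, Gria2 from −0.004 to 0.074, Nr3c2 from −0.033 to 0.054, Sgk1 from −0.234 to 0.079 and Mrpl44 from −0.008 to 0.057. By treatment field Mrpl44 stood at −0.002 and Nr3c2 at −0.024, and without control 10 of both genotypes Gria1 stood at −0.023. Depth limits genes near 0.5 RPKM, such as Rec8, whose difference depends on the pseudocount.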

Other observations

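With control 10 of both genotypes left out, several genes passed the test that are not described above, and they are given as values chosen after they were seen. Fbxo44, a ubiquitin ligase subunit, had a difference of −0.51 (adjusted p = 0.000561) and Clcn6, a late endosomal chloride transporter, one of 0.33 (adjusted p = 0.00168), with WT controls apart in both. Fam177a stood at 0.50 (adjusted p = 0.0018), and the signal recognition particle genes Srp54c and Srp54a at 0.37 (adjusted p = 0.00237) and 0.38 (adjusted p = 0.00388), also with WT controls apart. Lyz2, the lysozyme of myeloid cells, stood at −1.67 (adjusted p = 0.0122) and was crossed. The caveolar protein Cav1 was at −0.48 (adjusted p = 0.0122) and the receptor Calcrl at −0.46 (adjusted p = 0.00985). Cacng5, an AMPA receptor partner, was among the genes for which knockout-labelled controls stood apart, at 1.12 (adjusted p = 0.0139), as was the phosphatase Ptpn5, at 0.42 (adjusted p = 0.014).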
